A study of Mus musculus with 12 samples.

Results

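The 6 long noncoding RNA genes, Gm26917, Malat1, Neat1, Gas5, Snhg1 and Kcnq1ot1, were followed across PFOS doses in C2C12 cells. They were taken from the gene count table as the rows that carry these gene names, 6 of 54532 genes, and all 6 passed the filter on low counts. The names were chosen by their levels in these same libraries, with the dose differences also in view. C2C12 is a mouse skeletal muscle line, named as myoblasts in the sample titles. Confluent dishes received perfluorooctanesulfonate (PFOS, a persistent fluorinated surfactant) at 0, 2 or 6 µM for 24 h, and each dose had 4 libraries. All groups share the same line, no genetic change is named, and the 0 µM group received no PFOS. The labels do not state whether replicate libraries were grown as separate cultures, so the p-values below measure the spread between libraries, which may be technical. Since the names were chosen with these data in view, levels and dose differences of the 6 are a description, and their p-values, taken from a fit across all tested genes, are not independent evidence.

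Long noncoding RNAs are transcripts that are not translated into a known protein. Malat1 is retained in nuclear speckles, bodies rich in splicing factors, and Neat1 is the RNA scaffold of paraspeckles. Gas5 and Snhg1 carry small nucleolar RNAs (snoRNAs) in their introns, and their spliced RNAs are substrates of nonsense-mediated decay. Kcnq1ot1 is transcribed antisense to Kcnq1 and silences neighbouring imprinted genes in cis. Gm26917 is annotated as a lincRNA beside an 18S rRNA-like sequence.

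The 12 libraries held 30206155 to 50351082 counts, and 16038 genes passed the filter. The 6 RNAs together took 0.210% to 0.246% of the counts of a library. The myoblast label was checked on 10 markers: 9 passed the filter, their summed level was 730 to 850 counts per 1000000 counts of the scaled library (CPM), and Pax7, a satellite cell marker, was below 1 CPM on average. Of the 9, Myog, Myod1, Chrna1 and Cdh15 were called lower and Ncam1 higher at 6 against 0 µM by the test described below. That is 55.6% of the 9, beside 8.24% of all tested genes (4.58% higher, 3.66% lower). The median log2 fold change of the 9 was -0.26 beside -0.02 for all tested genes. The summed leukocyte, endothelial and neural markers stayed at or below 1.58, 7.17 and 1.87 CPM, with Ptprc, Pecam1 and Snap25 below 1 CPM. The adipocyte sum was 5.63 to 6.18 CPM at 0 µM and 6.63 to 9.18 CPM at 6 µM, where Fabp4 rose, with Adipoq and Plin1 below 1 CPM. The fibroblast sum was 3648 to 5060 CPM, above the myoblast sum. Of its 6 markers, Lum, Tcf21 and Dpt were below 1 CPM on average, while Pdgfra, Dcn and Col1a1 were not.

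Not all 6 RNAs were abundant. Per kilobase of gene length, Gm26917 averaged 367 CPM per kb over the 12 libraries and ranked 1 of 9680 genes of long noncoding biotypes, ahead of H19 (315 CPM per kb), 2410006H16Rik (311), AI506816 (97.3) and Xist (86.3). Malat1 ranked 7 at 76.5 CPM per kb, Neat1 17 at 21.95 and Snhg1 18 at 18.05. Gas5 ranked 90 at 3.43 CPM per kb and Kcnq1ot1 1633 at 0.0889. The length of Kcnq1ot1 in the table is 93092 bases, the longest of the 6, which lowers its value per kilobase.

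**Figure D1:**
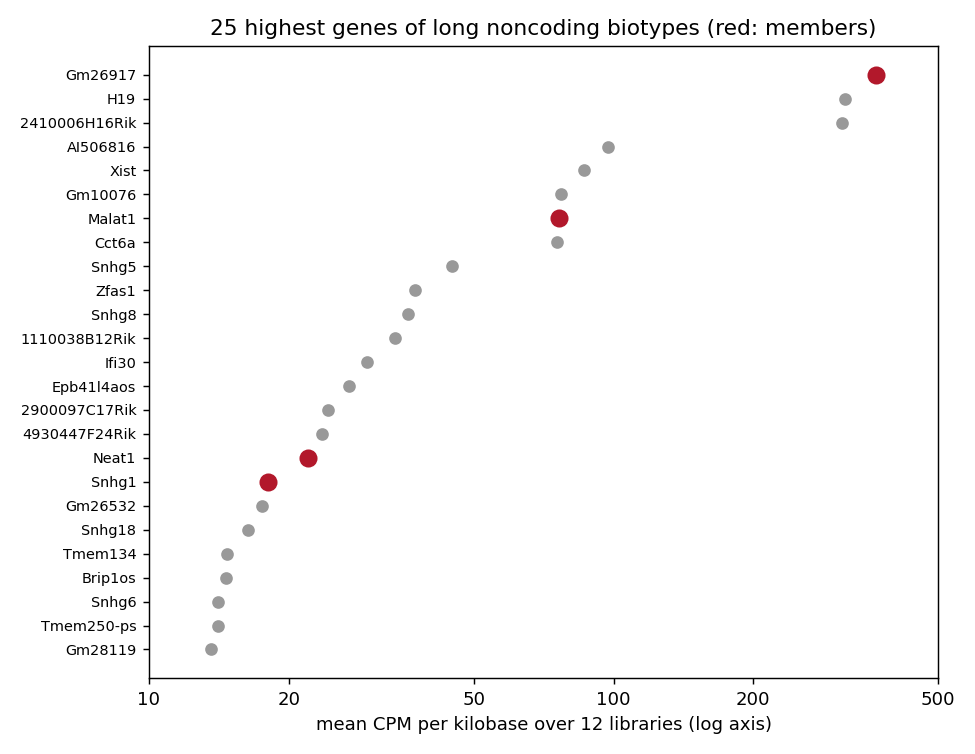
Mean level over the 12 libraries, in CPM per kilobase on a log axis, of the 25 highest genes of long noncoding biotypes, with Gm26917, Malat1, Neat1 and Snhg1 in red. Gm26917 leads at 367 CPM per kb, Malat1 is at 76.5, and Gas5 and Kcnq1ot1 lie outside the 25.

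At 6 against 0 µM, Gm26917 rose 1.44-fold, Neat1 fell 1.42-fold and Malat1 fell 1.252-fold, while Gas5, Snhg1 and Kcnq1ot1 did not pass the test. These are 3 of 6 genes called by edgeR's quasi-likelihood test at a Benjamini-Hochberg adjusted p under 0.05, beside 8.24% of all tested genes, 4.58% higher and 3.66% lower. Only for Gm26917 of the 6 did the CPM of the doses not overlap, which was so for 12.5% of all genes. At 2 against 0 µM, Snhg1 was the 1 gene of 6 called, rising 1.22-fold, beside 2.35% of all genes (1.61% higher, 0.742% lower), and also the 1 gene without overlap, beside 8.37%. At 6 against 2 µM, Gm26917 rose and Neat1 fell, 2 of 6 beside 1.11% of all genes (0.561% higher, 0.549% lower), and Gm26917 and Snhg1 had no overlap, beside 8.6%. The 2 and 6 µM comparisons share the 0 µM libraries. The median log2 fold change of all tested genes was -0.01, -0.02 and -0.0046 in the 3 comparisons, so the scaling left the bulk of genes near 0.

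**Figure D2:**
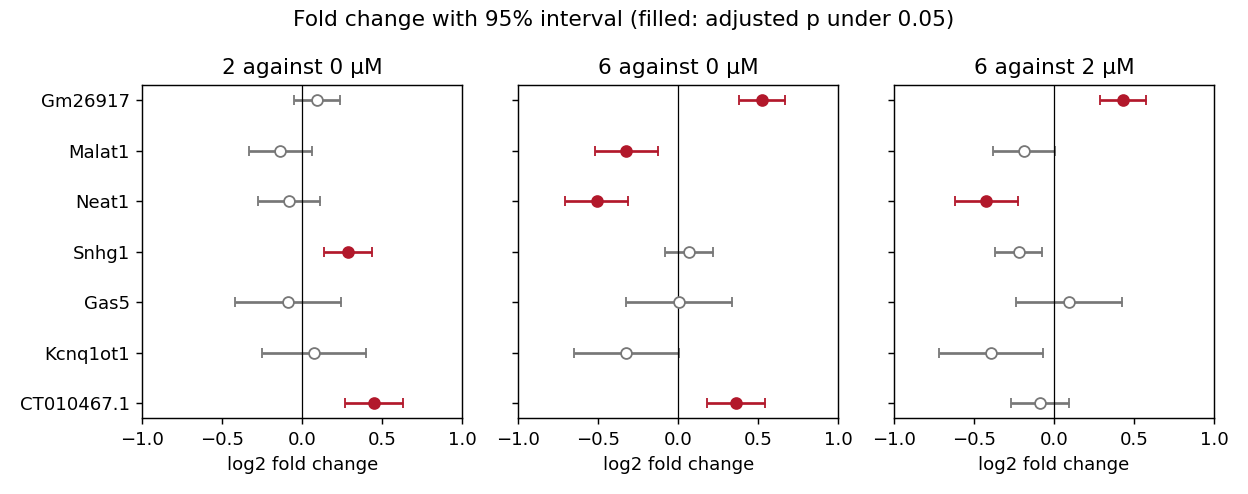
Log2 fold change (x axis) of the 6 RNAs and of CT010467.1, the rRNA-like neighbour of Gm26917 (y axis), in the 3 comparisons. Bars are 95% intervals from the fit across all genes, and points are filled where the adjusted p is under 0.05. CT010467.1 is filled at 0.45 at 2 against 0 µM and at 0.36 at 6 against 0 µM. At 6 against 0 µM Gm26917 is filled at 0.52, Neat1 at -0.51 and Malat1 at -0.32.

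Gm26917 (ENSMUSG00000097971, lincRNA) lies at chr17:39843013-39846341 on the plus strand of GRCm38 and spans 3329 bases. On the minus strand, 11 bases after its end, the table lists CT010467.1 (ENSMUSG00000106106, biotype rRNA, chr17:39846353-39848827), an 18S rRNA-like gene. The strand is that of the annotation. Without a stated strand setting, the strand of the reads counted to either row is not known. The last 120 bases of Gm26917 (chr17:39846222-39846341) and the first 60 bases of CT010467.1 read on the plus strand (chr17:39846353-39846412) are shown because together they mark the junction between the 2 rows, with letters from GENCODE M21 (GRCm38) and no capitals.
Gm26917 last bases: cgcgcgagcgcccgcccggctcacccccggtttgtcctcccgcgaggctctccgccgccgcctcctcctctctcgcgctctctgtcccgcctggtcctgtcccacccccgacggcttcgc
CT010467.1 first bases on the plus strand: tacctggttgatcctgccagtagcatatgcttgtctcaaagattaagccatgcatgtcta
The Gm26917 transcript is 69.1% G and C, above 99.8% of 134529 transcripts of the annotation, whereas the longest transcripts of the other 5 RNAs were 40.3% to 47.3% G and C. Gm26917 and CT010467.1 share 0 words of 25 bases on either strand, and so do Lars2 and CT010467.1, so the word count does not set these pairs apart. Only the 1849-base transcript of CT010467.1 was searched. The count therefore cannot show whether Gm26917 or Lars2 holds other rRNA-like sequence. Gm42418 and AY036118, which overlap CT010467.1, had 0 counts in all 12 libraries. How the counting treated reads that fall in more than one row is not given in the sources used here, so what the zeros mean is not known.

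Gm26917 was measured at 859, 1166, 997 and 1160.4 CPM in the 4 libraries at 0 µM. The values were 1229, 1074, 1114 and 1042 CPM at 2 µM, and 1543, 1399, 1522 and 1546 CPM at 6 µM. Every library at 6 µM lay above every library at 0 and at 2 µM, while the 2 lower doses overlapped. The means were 1046 ± 147, 1115 ± 81.7 and 1503 ± 69.9 CPM (SD, n = 4). The rise at 6 against 0 µM was 0.52 on the log2 scale (SE 0.070, adjusted p = 3.69e-05 by edgeR's quasi-likelihood test), and at 6 against 2 µM it was 0.43 (SE 0.070, adjusted p = 0.00161). At 2 against 0 µM the log2 difference was 0.09 (95% interval -0.05 to 0.24, adjusted p = 0.608 by the same test). The 6 against 0 µM call held in each of the 12 fits that left out 1 library, with values of 0.44 to 0.58, and it held under the other tools and scalings tried. The share of a library's counts that fell on Gm26917 was 0.0877% to 0.118% at 0 µM and 0.139% to 0.153% at 6 µM, and the 95% Wilson intervals of the highest 0 µM and lowest 6 µM library (0.119% upper and 0.138% lower bound) do not meet. These intervals treat each read as an independent draw, so they cover counting error at most and not the spread between libraries. The sources used here name no molecular identifiers, so repeated copies of a molecule were not told apart.

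The neighbour CT010467.1 followed another order over the doses. It was at 2199.6, 2361, 2544 and 1689.6 CPM at 0 µM, at 2735, 2729, 3003 and 3519.95 CPM at 2 µM, and at 3089.5, 2661, 2817 and 2719 CPM at 6 µM. Both treated groups lay above the 0 µM libraries and overlapped each other. CT010467.1 rose 1.36-fold at 2 µM (adjusted p = 0.00919) and 1.28-fold at 6 µM (adjusted p = 0.0126) by edgeR's quasi-likelihood test, and at 6 against 2 µM its log2 difference was -0.09 (95% interval -0.27 to 0.10). The first call ended without 2 µM replicate 4 (adjusted p = 0.0552), and the second without 6 µM replicate 1 (adjusted p = 0.0509) and without the 3 libraries farthest from their dose mean (adjusted p = 0.0557). Gm26917 counts per 100 CT010467.1 counts were 49.1 ± 13.9 at 0 µM, 37.7 ± 6.35 at 2 µM and 53.4 ± 2.89 at 6 µM. At 0 µM this ratio ranged from 39.1 to 68.7, with the highest in the library with the lowest CT010467.1 (replicate 4), and that library alone lay above the 6 µM libraries (49.96 to 56.9). The other 3 untreated libraries (39.1 to 49.4) and all 4 at 2 µM (29.6 to 44.9) lay below every library at 6 µM. Across the 12 libraries with dose means removed, Pearson's r between Gm26917 and CT010467.1 was -0.33, and r between CT010467.1 and Lars2 was 0.82. Lars2, a mitochondrial leucyl-tRNA synthetase gene listed here with genes that hold rRNA-like sequence, was at 1117 ± 197, 1545 ± 188 and 1491 ± 54.4 CPM and was called higher at both doses (adjusted p = 0.00762 and 0.00452). Cdk8, the third most abundant tested gene of that list, was at 48.7 ± 5.41, 52.2 ± 2.71 and 49.5 ± 5.18 CPM and was called at neither dose (adjusted p = 0.623 and 0.899). CT010467.1 took 0.172% to 0.350% of the counts of a library although messenger RNA had been purified. It moved with dose, and the part that rRNA carried into the libraries has in the Gm26917 values was not tested.

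**Figure D3:**
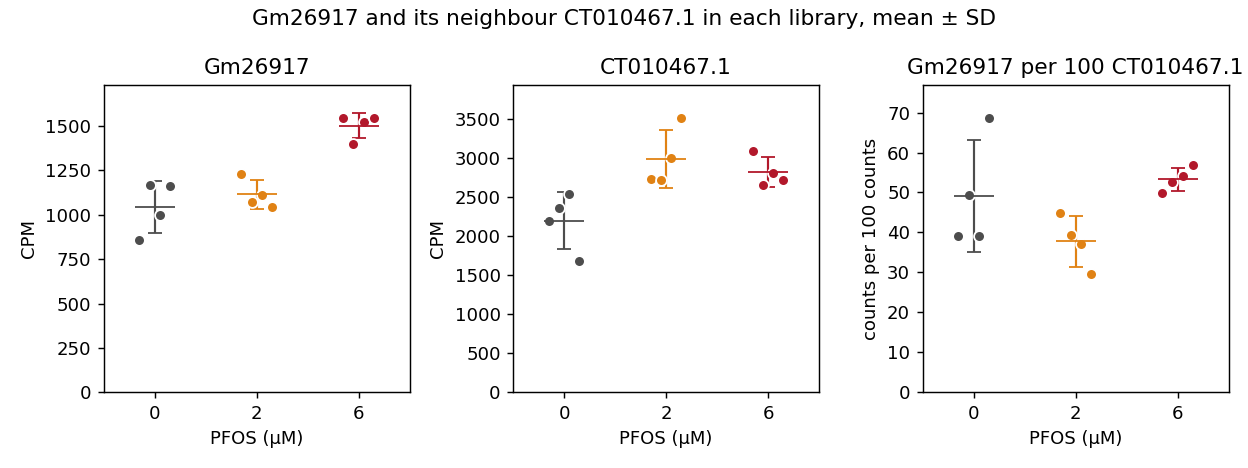
CPM of Gm26917 and of its neighbour CT010467.1, and Gm26917 counts per 100 CT010467.1 counts, in each library by PFOS dose in µM, with mean and SD over 4 libraries. Gm26917 is highest at 6 µM (1399 to 1546 CPM), CT010467.1 is above the untreated libraries at both doses, and the ratio at 6 µM lies above all 4 libraries at 2 µM and 3 of 4 at 0 µM.

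Genes whose log2 CPM followed Gm26917 most closely over the 12 libraries, among 11670 genes with a mean log2 CPM of at least 1, were protein-coding. They included Coro2a, a coronin family actin-binding gene (r = 0.98), Eif5a, a translation factor (0.96), Hmga1b, a chromatin protein gene (0.95), and Slc25a1, the mitochondrial citrate carrier (0.95). With dose means removed r was 0.81 to 0.88. These points share library, depth and dose, and the genes were the highest of many, so r is a description.

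Neat1 (ENSMUSG00000092274, lincRNA) and Malat1 (ENSMUSG00000092341, lincRNA) lie on the minus strand of chromosome 19 at chr19:5824708-5845478 and chr19:5795690-5802672. Both are known to end without the usual poly(A) tail in their mature long forms. RNase P cuts before a tRNA-like element, and U-rich stretches pair with an A-rich end in a triple helix. The counts are per gene, from purified messenger RNA, so the share of the long forms in the Neat1 and Malat1 rows is not known. The 3′ end of the long Neat1 transcript (last 95 bases, chr19:5824708-5824802) and the matching stretch of Malat1 (chr19:5795970-5796069) are shown because this is where the pair is alike. Letters are from GENCODE M21 on GRCm38, in transcript direction, and capitals mark runs of 8 or more bases shared in order.
Neat1 last bases: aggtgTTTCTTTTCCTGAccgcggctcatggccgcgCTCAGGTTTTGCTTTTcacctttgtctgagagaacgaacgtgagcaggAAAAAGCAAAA
Malat1 stretch: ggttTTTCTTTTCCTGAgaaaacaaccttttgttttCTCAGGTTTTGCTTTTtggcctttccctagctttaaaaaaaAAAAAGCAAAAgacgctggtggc
The stretches share 3 such runs with 40 bases in all, the longest of 16 bases. In Malat1 the stretch covers bases 6604 to 6703 of the annotated transcript, which goes on for 280 bases. The longest run of A in the annotated transcript was 12 bases in Malat1, 7 in Neat1 and 41 in Kcnq1ot1.

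Neat1 was at 536, 543, 574 and 415 CPM at 0 µM. It was at 423, 477, 548 and 502 CPM at 2 µM and at 331, 451, 334 and 336 CPM at 6 µM. At 6 µM, 3 of 4 libraries lay below every library of the other doses, and replicate 2 lay above the lowest library of each. The means were 517 ± 69.7, 488 ± 51.8 and 363 ± 58.8 CPM (SD, n = 4). Neat1 fell by 0.51 on the log2 scale at 6 against 0 µM (SE 0.095, adjusted p = 0.00142 by edgeR's quasi-likelihood test), and it stayed called without each library in turn (-0.63 to -0.46). At 6 against 2 µM it fell by 0.43 (SE 0.095, adjusted p = 0.0275 by the same test). That call ended without 2 µM replicate 2, 3 or 4 (adjusted p = 0.0604, 0.114 and 0.0963), without 6 µM replicate 1, 3 or 4 (0.104, 0.116 and 0.105), and with DESeq2 (0.0583). The log2 difference at 2 against 0 µM was -0.08 (95% interval -0.28 to 0.11).

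Malat1 was at 611, 634, 539 and 581 CPM at 0 µM. It was at 459, 488, 647 and 558 CPM at 2 µM and at 439, 557, 386 and 509 CPM at 6 µM. The 6 µM values overlapped the 0 µM values through replicate 2, and those at 2 µM reached above and below all at 0 µM. The means were 592 ± 41.0, 538 ± 84.1 and 472 ± 75.4 CPM (SD, n = 4). Malat1 fell by 0.32 on the log2 scale at 6 against 0 µM (SE 0.094, adjusted p = 0.0348 by edgeR's quasi-likelihood test). The call ended without 0 µM replicate 1 or 2 (adjusted p = 0.0709 and 0.111), without 6 µM replicate 1 or 3 (0.107 and 0.140), without the 3 libraries farthest from their dose mean (0.109), and with DESeq2 (0.118). At 2 against 0 and 6 against 2 µM the log2 differences were -0.14 (95% interval -0.33 to 0.06) and -0.19 (-0.38 to 0.01). Neat1 counts per 100 Malat1 counts were 87.8 ± 14.3, 91.2 ± 5.52 and 77.3 ± 8.70 at 0, 2 and 6 µM, and their ranges overlapped between the outer doses. In bulk RNA, a lower level in every cell and fewer cells that hold the RNA cannot be told apart.

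Beside the falls of Neat1 and Malat1, the shares of some annotated biotypes were lower at 6 µM. All long noncoding biotypes other than the 6, H19 and the snoRNA hosts included, took 0.706% to 0.748% of counts at 0 µM, 0.662% to 0.724% at 2 µM and 0.608% to 0.673% at 6 µM. Sense-intronic and unverified transcripts together took 0.0738% to 0.0812%, 0.0574% to 0.0728% and 0.0517% to 0.0618%. The sense-intronic part is also counted in the long noncoding share, so these shares overlap. Genes with counts numbered 20470 to 21040 at 0 µM and 19292 to 20110 at 6 µM, although the 6 µM libraries were on average deeper. Their part in the Neat1 and Malat1 values was not tested.

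**Figure D4:**
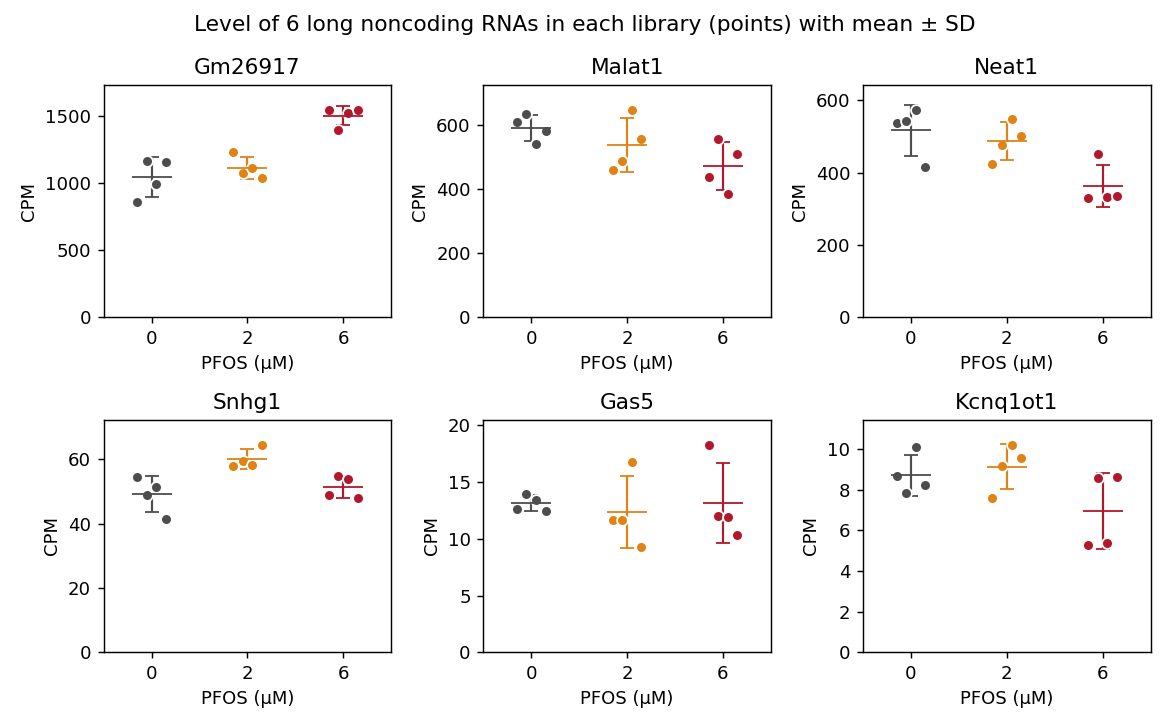
CPM (y axis, from 0) of each of the 6 RNAs in every library by PFOS dose in µM, with mean and SD over 4 libraries. Gm26917 rises to 1503 CPM at 6 µM, Neat1 falls from 517 to 363 CPM with replicate 2 apart at 451 CPM, and Snhg1 is highest at 2 µM (60.1 CPM).

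The nearest matches of Neat1 over the 12 libraries were Sec62, a translocon gene (r = 0.96), Neil3, a DNA glycosylase gene (0.96), and 2610008E11Rik (0.93). Those of Malat1 were Zc3h7a (0.93), Trim39 (0.92) and 6030458C11Rik (0.91). With dose means removed, Neat1 and Malat1 had r = 0.60 with each other, and Kcnq1ot1 had r = 0.68 with Malat1 and 0.61 with Neat1, whereas Gm26917 had r = -0.56 with Neat1. Frmd8, 4223 bases from Neat1 and the only neighbour of the pair within 20 kb that passed the filter, had a log2 difference of -0.04 at 6 against 0 µM (adjusted p = 0.832 by edgeR's quasi-likelihood test).

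Snhg1 (ENSMUSG00000108414, processed transcript) lies at chr19:8723475-8726443 on the plus strand. Slc3a2, which encodes the heavy chain of cystine and large amino acid transporters, starts on the other strand 105 bases away. Their shared start region (chr19:8723237-8723536, plus strand, RefSeq on GRCm38.p6) is shown because both genes moved at 2 µM, with the 105 bases between the genes in capitals.
Snhg1 and Slc3a2 start region: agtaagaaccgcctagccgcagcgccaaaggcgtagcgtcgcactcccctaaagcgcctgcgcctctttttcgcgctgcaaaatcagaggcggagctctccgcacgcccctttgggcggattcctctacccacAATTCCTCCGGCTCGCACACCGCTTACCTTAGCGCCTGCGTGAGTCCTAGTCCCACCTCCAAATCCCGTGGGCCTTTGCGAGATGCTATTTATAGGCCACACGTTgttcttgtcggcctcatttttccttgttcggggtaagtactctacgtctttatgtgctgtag
Of 5 motifs searched on either strand, TATAAA was found in this window. It was also found in 13.6% of 32851 RefSeq start regions of 300 bases. The CCAAT box (CCAAT, in 37.4% of regions), the E-box CACGTG (7.15%), the cyclic AMP response element TGACGTCA (1.79%) and the amino acid response core TGATGCAA (0.895%) were not in these letters.

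Snhg1 was at 54.6, 49.1, 51.5 and 41.6 CPM at 0 µM. It was at 57.9, 59.4, 58.3 and 64.6 CPM at 2 µM and at 48.9, 54.9, 54.0 and 48.1 CPM at 6 µM. Every library at 2 µM lay above every library of the other doses, which overlapped each other. The means were 49.2 ± 5.54, 60.1 ± 3.11 and 51.5 ± 3.50 CPM (SD, n = 4). Snhg1 rose by 0.29 on the log2 scale at 2 against 0 µM (SE 0.072, adjusted p = 0.0356 by edgeR's quasi-likelihood test). The call ended without 0 µM replicate 2, 3 or 4 (adjusted p = 0.0938, 0.0529 and 0.0990) and without 2 µM replicate 2, 3 or 4 (0.0820, 0.0554 and 0.165). Upper-quartile scaling (0.0542) and a fit with replicate number as a block (0.0553) ended it too. At 6 against 2 µM the log2 difference was -0.22 (95% interval -0.37 to -0.07, adjusted p = 0.158), and at 6 against 0 µM it was 0.07 (-0.09 to 0.22).

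Slc3a2 was at 535, 617 and 579 CPM on average at 0, 2 and 6 µM. It rose by 0.21 on the log2 scale at 2 µM (adjusted p = 0.0111 by edgeR's quasi-likelihood test), a call that ended without 2 µM replicate 4 (0.0673), and its difference at 6 against 0 µM was 0.12 (adjusted p = 0.0949). The other tested neighbour of Snhg1, Stx5a, a Golgi SNARE gene 14969 bases away, fell by 0.27 at 6 against 0 µM (adjusted p = 0.0217). The genes most like Snhg1 over the 12 libraries were Cth, the cystathionine gamma-lyase gene (r = 0.97), Enkd1 (0.97) and Pnrc2, a decay factor gene (0.95). All 3 had their highest mean at 2 µM, which for Cth was 122 CPM against 101 at 0 µM and 104 at 6 µM.

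Gas5 (ENSMUSG00000053332, processed transcript, chr1:161034422-161038539, plus strand) was at 12.6, 14.0, 13.4 and 12.5 CPM at 0 µM. It was at 11.7, 11.7, 16.8 and 9.30 CPM at 2 µM and at 18.3, 12.03, 11.9 and 10.4 CPM at 6 µM. The doses overlapped throughout, with a wider spread among the treated libraries (SD 3.16 and 3.52 CPM) than among the untreated (0.711 CPM). The log2 difference was -0.09 at 2 against 0 µM (95% interval -0.42 to 0.24) and 0.0029 at 6 against 0 µM (-0.33 to 0.33). Zbtb37, which overlaps the start of Gas5 on the other strand, was at 28.0, 27.0 and 24.7 CPM on average and was not called. Without a stated strand setting, reads from the overlap cannot be told apart. The closest genes to Gas5 were Slx1b (r = 0.80), Fbxw17 (0.78) and Atp6v0e2 (0.77).

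Rows for snoRNAs inside the 2 host genes had no counts: 10 snoRNA rows inside Gas5 and 8 inside Snhg1 stood at 0 in all 12 libraries. Whether reads from inside these rows were dropped or counted to the host is not given in the sources used here. Of 13 other snoRNA host genes tested, 0 were called at 6 against 0 µM by edgeR, beside 8.24% of all genes. At an unadjusted p under 0.05, 2 were lower and 0 higher, and DESeq2 called 0. Snhg4 was the 1 called at 2 against 0 µM, where it fell by 0.45 (adjusted p = 0.0285), beside 2.35% of all genes. It was called in none of the fits without 0 µM replicate 2 or 3 or 2 µM replicate 1, 3 or 4, and DESeq2 called 1 host gene higher as well as 1 lower in this comparison. The 3 most abundant, Zfas1, Snhg5 and Snhg8, had log2 differences of 0.08, 0.07 and 0.07 at 6 against 0 µM. The list's median was -0.04 beside -0.02 for all genes.

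Kcnq1ot1 (ENSMUSG00000101609, antisense, chr7:143203458-143296549, minus strand) lies inside Kcnq1. It was at 8.66, 7.84, 10.1 and 8.24 CPM at 0 µM. It was at 7.61, 9.18, 10.2 and 9.59 CPM at 2 µM and at 5.30, 8.58, 5.36 and 8.61 CPM at 6 µM. At 6 µM, replicates 1 and 3 lay below every other library, and replicates 2 and 4 lay within the untreated range. The log2 difference at 6 against 0 µM was -0.33 (SE 0.16, 95% interval -0.65 to 0.0035, adjusted p = 0.239 by edgeR's quasi-likelihood test), at 2 against 0 µM 0.07 and at 6 against 2 µM -0.40 (adjusted p = 0.275). Kcnq1 itself, on the other strand, had 1 count over the 12 libraries. Of 8 other tested genes of the Kcnq1 imprinted domain, 0 were called at 2 or 6 against 0 µM by edgeR, beside 2.35% and 8.24% of all genes. With so few genes, 0 calls do not set the domain apart from all genes. With an unadjusted p under 0.05 there were 1 higher and 1 lower at 6 µM and 1 higher and 2 lower at 2 µM. DESeq2 called 0 at 6 µM and 1 at 2 µM. Its closest genes were 2610316D01Rik, Zmynd11 and Senp8 (r = 0.91 each).

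Where they were called, other long noncoding RNAs fell more often than they rose at 6 µM. Of 22 other known long noncoding RNAs tested, 6 fell and 0 rose at 6 against 0 µM, 27.3% called beside 8.24% of all genes. Their median log2 fold change was -0.39 beside -0.02 for all genes. Without each library in turn 4 to 8 were called lower. H19, an imprinted RNA of muscle precursors, fell by 0.57 (adjusted p = 6.71e-10 by edgeR's quasi-likelihood test), from 913 ± 43.7 CPM through 798 ± 9.996 to 614 ± 12.4 CPM. Mir22hg, the host gene of miR-22, and Dleu2, the host of the miR-15a and miR-16 cluster, each fell by 0.58. Over all 1356 tested genes of long noncoding biotypes other than the 6, 6 rose and 46 fell, with a median of -0.27. The share called was 3.83%, below the 8.24% of all genes (4.58% higher, 3.66% lower). Gm26917, a lincRNA by annotation only, thus went the other way from most genes of long noncoding biotypes that were called. Whether its reads come from a lincRNA or from rRNA-related sequence was not tested.

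Of 33 nuclear speckle and splicing factors, the proteins of the bodies that retain Malat1, 9 fell and 2 rose at 6 against 0 µM (median -0.07), 33.3% beside 8.24% of all genes (4.58% higher, 3.66% lower). Ccnl2, a cyclin L gene, fell by 0.36 (adjusted p = 0.00011), Srsf5, an SR splicing factor gene, by 0.39 (0.000212) and Pnisr by 0.50 (0.000775), by edgeR's quasi-likelihood test. The 9 became 4 when 6 µM replicate 1 was left out and 5 when 6 µM replicate 3 was, and the 2 that rose became 1 without 0 µM replicate 2 or 6 µM replicate 3 or 4. Of 38 genes of paraspeckle proteins, which assemble on Neat1, 2 fell, Rbm4b by 0.72 and Tia1 by 0.38, and 2 rose, Hnrnpk by 0.12 and Smarca4 by 0.16 (median -0.04). That is 10.5% of the list, near the 8.24% of all genes. The count of those that rose was 0 without 0 µM replicate 3 or 6 µM replicate 1, 2 or 4 and 1 without 0 µM replicate 1 or 4, 2 µM replicate 2 or 6 µM replicate 3. The genes that fell numbered 5 with 6 µM replicate 2 left out and 4 with 0 µM replicate 4 left out. Of 26 genes that process the ends of Malat1 and Neat1 or degrade them, 0 were called by edgeR at 6 against 0 µM, while 3 were higher and 0 lower by an unadjusted p under 0.05 and DESeq2 called 2 higher. Of 25 nonsense-mediated decay factors, 1 fell at 6 against 0 µM, 4% beside 8.24% of all genes: Upf2, by 0.29 (adjusted p = 0.0342). That count was 0 without 0 µM replicate 1, 2 or 3 or 6 µM replicate 1 or 3. At 2 against 0 µM, where Snhg1 was called, 2 of the 25 rose, 8% beside 2.35% of all genes: Pnrc2 by 0.194 and Etf1 by 0.185. With 1 library left out, 0 to 2 rose there, and the count differed from 2 in 8 of the 12 fits. At 6 against 2 µM 1 of the 25 fell, Pnrc2, 4% beside 1.11% of all genes (0.549% lower). With 1 library left out, the count was 0 in 8 of the 12 fits.

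Genes of ribosome production, the setting of the rRNA-like neighbour of Gm26917, mostly rose where they were called, beside 4.58% of all genes higher and 3.66% lower. Of 33 genes of RNA polymerase I and rRNA processing, 9 rose and 2 fell at 6 against 0 µM (median 0.13), among them Utp20, an rRNA processing factor (0.32, adjusted p = 0.000489), Ddx21, an RNA helicase (0.26, 0.00109), and Ncl, nucleolin (0.20, 0.00322), by edgeR's quasi-likelihood test. The 2 that fell were Taf1a and Taf1d, subunits of the selectivity factor of RNA polymerase I, and 1 fell when 0 µM replicate 1 or 3 or 6 µM replicate 1, 3 or 4 was left out. Of 17 snoRNP and rRNA modification genes, 4 rose and 0 fell, led by Tcof1 (0.30) and Ruvbl2 (0.26), and 2 rose without 0 µM replicate 3 or 4. Of 27 messenger RNAs with a 5′ TOP motif outside the ribosome, the class of growth-regulated RNAs to which snoRNA host genes also belong, 5 rose and 0 fell, among them Pabpc1 (0.21), Eef1a1 (0.15) and Ipo5 (0.17).

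**Figure D5:**
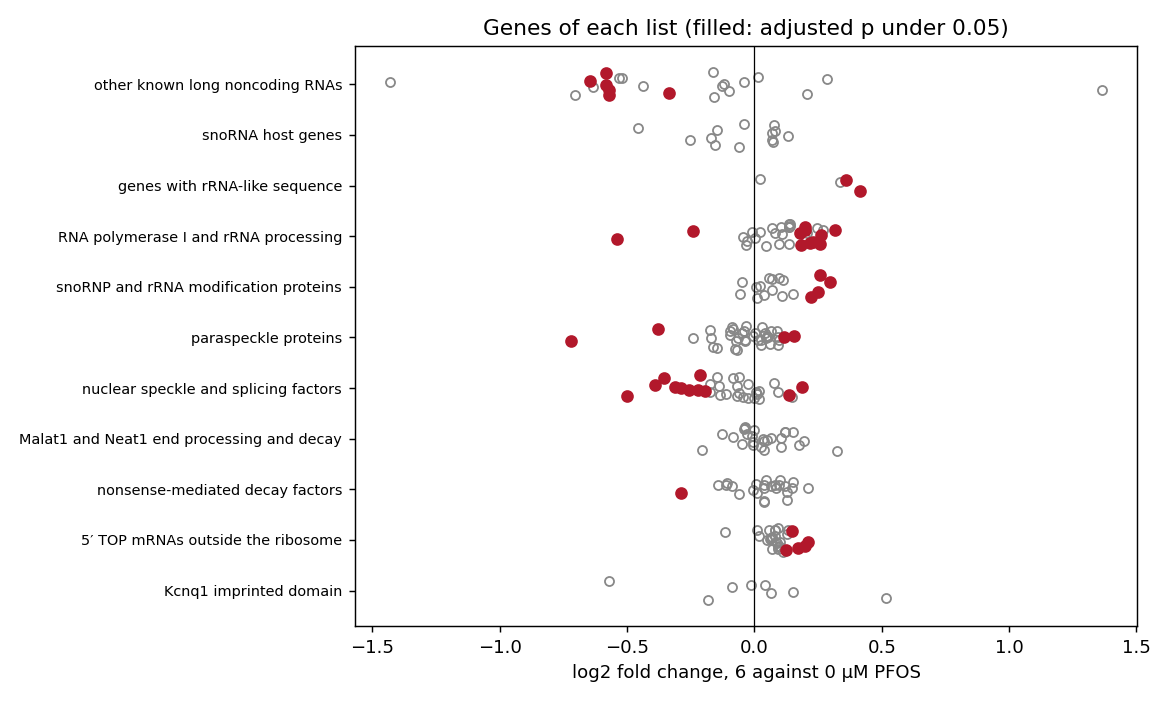
Log2 fold change at 6 against 0 µM (x axis) of the tested genes of each list (y axis), without the 6 RNAs, filled where the adjusted p is under 0.05. Filled points of other long noncoding RNAs lie below 0 (6 of 22), those of speckle factors mostly below (9 of 33) and those of rRNA processing mostly above (9 of 33).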

How the data were processed

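RNA was extracted with TRIzol and messenger RNA was purified from it, per the labels' protocols. The deposited data are raw gene-level counts of reads in 1 table, which also lists coordinates, biotype and length. Reads were aligned with HISAT2 and the build was GRCm39, per the submitters' processing notes. Which program counted the reads, with which strand setting and annotation, is not given in the sources used here. Coordinates in the table match GENCODE M21 on GRCm38 for 53499 of 54409 shared genes (98.3%), all 6 RNAs included, and are named so.

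The deposited counts were scaled by TMM, filtered with filterByExpr by dose (16038 genes kept, 38494 left out) and tested with edgeR 4.0.16 in R 4.3.3, quasi-likelihood test, 1 mean per dose over 12 libraries, 9 residual degrees of freedom. The common biological coefficient of variation was 10.8%. P-values were adjusted by Benjamini-Hochberg over all tested genes, and a gene was called under 0.05. Libraries held 30206155 to 50351082 counts, and CPM use totals over the tested genes scaled by TMM. A standard error is the log2 fold change over the square root of F. Alternatives were DESeq2 1.42.0, limma-voom (limma 3.58.1), other scalings, filters and sample sets, a replicate block and each library left out. On simulated data, run on 15672 genes as 6 against 0 µM, the test recovered 66% of 1.25-fold, 90% of 1.5-fold and 100% of 2-fold higher genes and 72% of 1.25-fold lower genes, with 9 unchanged genes called.

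The RNAs and the gene lists were chosen with earlier results of these data known, and the 6 were taken out of the other lists after the data had been seen. Named are all 6, the 5 (Gm26917) or 3 genes most correlated with each in log2 CPM (prior count 2), tested genes within 20 kb, up to 3 called genes per list with the smallest adjusted p at 6 against 0 µM, the 3 most abundant snoRNA host and rRNA-like genes and the 5 highest long noncoding genes per length. Of the genes most correlated with Gm26917, 1 is not reported here. Other named genes were chosen after their values were seen. Sequences come from GENCODE M21 and RefSeq, which held a start region for 4 of the 6.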

Additional observations from a re-analysis of the deposited data

Results flagged for a closer look

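In 2 of 18 groups of 4 libraries (6 RNAs at 3 doses), 1 library stood far from the other 3 relative to the range of its group, beyond Dixon's 95% critical value. Chance gives this in about 1 in 20 groups. Both were in 6 µM replicate 2. Gm26917 was at 1399.24 CPM there and at 1522 to 1546 CPM in the other libraries at 6 µM. Neat1 was at 451.32 CPM there and at 331 to 336 CPM in the others. In both cases the library lay closer to the untreated level. Without it the change at 6 against 0 µM was 0.56 on the log2 scale for Gm26917 and -0.63 for Neat1.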

How the results depend on the processing

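Of the calls on the 6 RNAs, those of Gm26917 at 6 against 0 and 6 against 2 µM and of Neat1 at 6 against 0 µM held under all 22 alternatives, and no called value changed sign. DESeq2 called 518 genes higher and 224 lower at 2 against 0 µM and 229 and 216 at 6 against 2 µM, and gave -0.32 for Malat1 at 6 against 0 µM (adjusted p = 0.118) and -0.42 for Neat1 at 6 against 2 µM (0.0583). Without the count filter 438 genes were higher and 193 lower at 2 against 0 µM and 177 and 224 at 6 against 2 µM, and Malat1 (-0.19, adjusted p = 0.00458) and Snhg1 (-0.22, 0.0396) were called at 6 against 2 µM. Upper-quartile scaling gave 0.27 for Snhg1 at 2 against 0 µM (0.0542), and 598 genes higher and 662 lower at 6 against 0 µM in place of 735 and 587. A fit of only the 2 doses compared called 174 higher and 133 lower at 6 against 2 µM. Without 0 µM replicate 1 and 6 µM replicates 2 and 3, 408 were higher and 302 lower at 6 against 0 µM, Malat1 there was -0.30 (0.109), and 55 were lower at 6 against 2 µM. The cause of these shifts was not tested.

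With 1 library left out, genes called numbered 72 to 322 higher and 34 to 168 lower at 2 against 0 µM, with the lowest counts without 2 µM replicate 4. At 6 against 2 µM they numbered 45 to 138 higher, with the extremes without 6 µM replicate 4 and 0 µM replicate 1, and 33 to 121 lower, with the lowest without 2 µM replicate 4. Shifts of over 1.5 times came at 2 against 0 µM without 0 µM replicates 2, 3 and 4 and 2 µM replicates 2 and 4, and at 6 against 2 µM without 0 µM replicate 1, 2 µM replicates 2, 3 and 4 and 6 µM replicates 1, 3 and 4. At 6 against 0 µM they numbered 513 to 789 higher and 398 to 592 lower. Snhg1 at 2 against 0 µM ranged from 0.22 to 0.34, Malat1 at 6 against 0 µM from -0.41 to -0.23, and Neat1 at 6 against 2 µM from -0.55 to -0.36.

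Whether replicate numbers pair the libraries is not known. Of 12 same-numbered pairs, 0 had a correlation of deviations over 0.1 (-0.03 to 0.04), and 5 of 12 libraries correlated best with their own number. Correlations over all tested genes this near 0 cannot settle the pairing. The replicate block gave 0.29 for Snhg1 at 2 against 0 µM (adjusted p = 0.0553) and 54 genes lower at 6 against 2 µM, and it ended no other call on the 6 RNAs. Gas5 and Kcnq1ot1, with 230 to 794 counts in a library, are the least precise of the 6. Their intervals span changes of the size seen in Malat1.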
